A study of Mus musculus with 6 samples.

Results

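The annexin genes described here are Anxa1, Anxa2, Anxa3, Anxa4, Anxa5, Anxa6, Anxa7, Anxa10, Anxa11 and Anxa13. They are the 10 listed members of the family, found by matching the accession of each array probe to a gene symbol, and all 10 had at least 1 probe among the 23462 genes with a named probe. The members have 15 probes together, and every one is given below. The family was chosen from measured differences between the groups of this study, so the values of knockout against control that follow are a description of the members and not a test of them. Anxa8 and Anxa9, also annexin genes, are not on the list and are given separately.

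RNA came from isolated intestinal crypts of mice of a mixed strain, the age not being stated in the labels. A crypt is a tubular gland of the gut lining in which stem cells divide. The 3 control samples are Arid1a f/f, in which both alleles of Arid1a carry recombination sites. The 3 knockout samples are Villin-Cre; Arid1a f/f, in which Cre under the Villin promoter, active in intestinal epithelium, removes Arid1a, a subunit of the BAF chromatin-remodelling complex. Cells of the crypt preparation other than epithelium keep the gene in this model.

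The labels of knockout 2 and control 3 contradict each other. Their titles and descriptions place them in the groups used here, and their source names and genotypes place each in the opposite group. Signals here are log2 values from which the 75th percentile of the array is subtracted. Arid1a gave 3.71, 3.47 and 4.01 for controls 1, 2 and 3 against 2.20, 2.07 and 2.51 for knockouts 1, 2 and 3, so both arrays lay with the group of their titles. Controls 1 and 2 and knockouts 1 and 2 shared slide 1, and control 3 and knockout 3 shared slide 2. The share of probes well above background was 41.7% to 54.7% per array, which left 13492 genes for testing. Whether each sample is a separate animal is not in the labels, and p-values therefore reflect only how far these samples spread, which may be technical. In RNA from many cells, fewer cells of a type and less RNA per cell cannot be told apart.

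Annexins are cytosolic proteins that bind acidic phospholipids such as phosphatidylserine when calcium rises, through a conserved core of repeats. Each has its own N-terminal tail, and for several members that tail binds a small calcium-binding S100 protein. The family is known for organising the membrane and the actin beneath it, for moving vesicles, for patching torn plasma membrane and for limiting inflammation. In intestinal epithelium, annexins lie along the apical and lateral membranes and on vesicles bound for them.

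Anxa10 was the member with the largest difference between knockout and control crypts, and it ranked 1 among increases over the 13492 genes tested. Only 1 of its 3 control values was above background, so the size is uncertain: it was 9.96 on the log2 scale and 7.11 with normexp background correction, where it also ranked 1. By source name and genotype it ranked 5. Anxa10 entered the fit only with knockout arrays counted, so its call and rank are no independent support for a rise. Anxa13, Anxa7, Anxa5 and Anxa2 also had every knockout array above every control array. Anxa4 was lower on every knockout array on 1 of its probes. Anxa3, Anxa6 and Anxa11 had overlapping groups, and Anxa1 was at background on all controls. Of the 9 members bright enough for the fit, 4 passed an adjusted p of 0.05 as higher and 0 as lower with limma, beside 7.28% of all genes higher and 7.63% lower. At an unadjusted p of 0.05 the counts of members were 5 and 1. The knockout arrays lay wholly above the controls for 5 of the 9 and wholly below for 1, beside 19.0% and 20.7% of all genes. Because the family was selected on this contrast, nothing is read from these shares. The median difference of the 9 members was 0.84 on the log2 scale, knockout minus control, and that of all genes -0.01. Differences were positive for 7 of the 9 members, and for 6 of the 9 when arrays were centred on their median, where Anxa3 changed sign to -0.03. That centring moved the median of all genes from -0.01 to -0.26, and the higher share among all called genes from 48.8% to 28.8%.

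**Figure D1:**
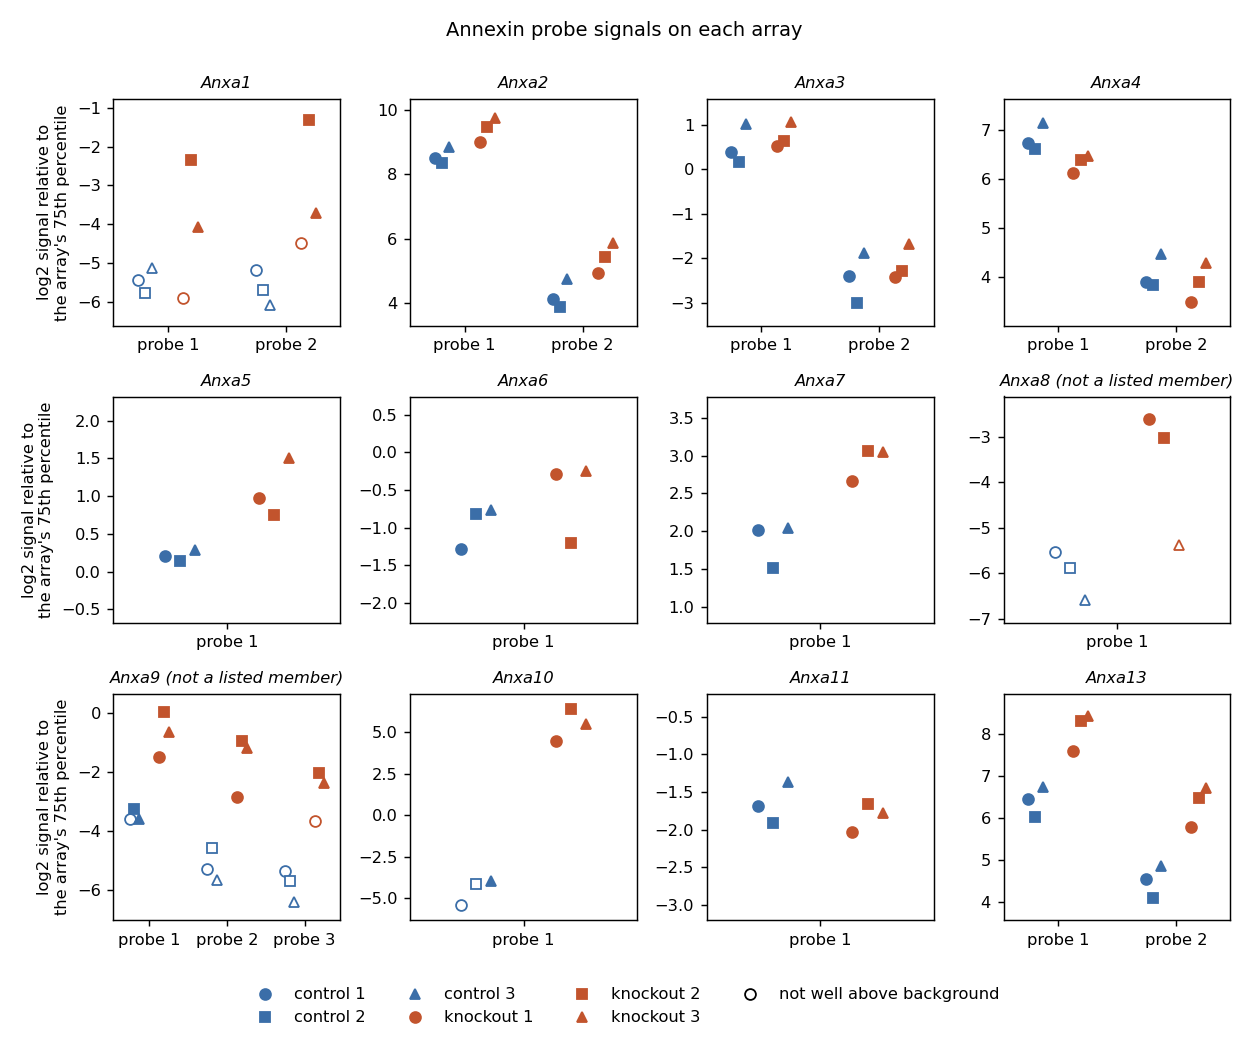
Signal of every annexin probe on each of the 6 arrays, as log2 relative to the array's 75th percentile, with 1 panel per gene and the symbol shape giving the replicate number. Blue points are controls, orange points are knockouts and open points were not well above background. The Anxa10 knockout points at 4.44, 6.42 and 5.47 lie far above its controls at -5.42, -4.15 and -3.96.

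The calls of members other than Anxa10 depended on single arrays, and Anxa10 entered the fit only with knockout arrays counted. The count of members called higher was 1 without control 1, 1 without control 2 and 2 without control 3. It was 5 without knockout 1, 2 without knockout 2 and 2 without knockout 3. Without both arrays of contradicting labels it was 1, and Anxa10 was the member called. With slide as a block it was 5, and on slide 1 alone 1. Sex, read from sex-linked genes on the arrays, was uneven, with 1 male and 2 female controls and 2 male and 1 female knockouts. With sex as a block the count was 2. Over all genes the number called higher moved in the same direction in each of these settings. From 982 it went to 352, 437 and 462 without controls 1, 2 and 3, and to 1710, 461 and 662 without knockouts 1, 2 and 3. It was 177 without both arrays of contradicting labels, 1234 with slide as a block, 319 on slide 1 alone and 696 with sex as a block.

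Anxa10 is an annexin with degenerate calcium-binding sites, known from gastric epithelium. Its single probe gave processed signals of 6.90, 15.7 and 18.6 on controls 1 to 3, of which only control 3 was well above background. On knockouts 1 to 3 the signals were 6353, 17717 and 9093. On the log2 scale these were -5.42, -4.15 and -3.96 for the controls and 4.44, 6.42 and 5.47 for the knockouts. The lowest knockout array lay 8.41 log2 units above the highest control array. The log2 difference of Anxa10 was 9.96 ± 0.58 (SE, n = 3 per group), a 995-fold higher mean signal. It was 10.22 within slide 1 and 9.44 within slide 2. It was between 9.47 and 10.46 with any 1 array left out, and 9.75 without both arrays of contradicting labels. With groups by source name and genotype the difference was 3.04.

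The Anxa10 gene lies on chromosome 8. The 250 bases before its start site, chr8:62123194-62123443 on the minus strand of GRCm38.p6, are shown from the RefSeq promoter table because the member with the largest difference holds 2 AP-1 motifs there, in capitals. AP-1 is a family of transcription factors made of Fos and Jun proteins.
Anxa10: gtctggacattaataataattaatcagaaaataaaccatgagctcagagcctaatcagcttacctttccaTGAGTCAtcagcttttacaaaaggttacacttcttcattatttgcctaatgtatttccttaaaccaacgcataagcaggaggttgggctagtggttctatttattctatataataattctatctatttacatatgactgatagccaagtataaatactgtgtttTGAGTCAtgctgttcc
Both matches read TGAGTCA, at 180 and 16 bases before the start. The motif searched was TGANTCA, on both strands. Windows were 300 bases, of which 250 precede the start, and 7 of the 10 members had 9 windows between them (Anxa3, Anxa6 and Anxa13 had no entry). AP-1 matched in 2 of the 9, those of Anxa10 and Anxa2. Of 32544 promoter windows of this length in the table, 7.79% held the motif at least once and 0.464% held it 2 or more times. GGAATG, a motif of TEAD factors, matched in 1 member window, that of Anxa1, on the strand opposite the gene at 236 bases before the start, and in 14.6% of all windows. TTCNNNGAA, the gamma interferon activation site, matched in 0 member windows and in 8.33% of all windows. No 2 matches in member windows overlapped. A match describes letters only, and binding was not measured.

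Anxa10 was set beside 15 markers of gastric surface and gland epithelium, since it is known from that tissue. Of these, 6 were bright enough to test and 0 passed an adjusted p of 0.05 with limma, against 2 higher and 1 lower at an unadjusted p of 0.05. The summed signal of those 6 was -0.06 to 0.24 (log2) on the controls, 0.78 on knockout 1, 5.79 on knockout 2 and 0.28 on knockout 3. Knockout 2 therefore stood apart from all other arrays in this list. The genes that set it apart were named after their values were seen. Tff1, a secreted trefoil peptide of gastric mucus, was at -5.32, -5.28 and -5.59 on controls 1 to 3, none well above background. On knockouts 1 to 3 Tff1 was at -3.02, 5.71 and -1.46, at least 18.2-fold higher in the mean (adjusted p = 0.105, not passed). Without knockout 2 the bound was 2.90-fold. Tff1 did pass without knockout 1 and without knockout 2, and Psca without knockout 3 and on slide 1 alone. Both genes entered the fit only with knockout arrays counted, so these calls are no independent support for a rise. Cblif went the other way, lower by 0.95 ± 0.32 with every knockout array below every control array. It was called lower with arrays centred on their median and with quantile normalization. Gkn3, Cldn18 and Atp4b differed by -0.01, 0.23 and -0.17. Gkn2, a gastric surface protein, was well above background on knockout 2 alone, at 5.14, and so was Tff2, at 3.28, and Vsig1, at -2.44. Psca was at -4.12, -5.37 and -3.00 on controls 1 to 3 and at -0.27, 0.84 and -3.30 on knockouts 1 to 3. Muc5ac, the main surface mucin of stomach, was well above background on 2 knockout arrays and 0 control arrays. Gkn1, Muc6, Pgc, Atp4a and Sox2 were well above background on no array. The markers thus differed in which knockout arrays they were detected on. Tff1 and Psca were well above background on all 3, as Anxa10 was, Muc5ac on 2, and Gkn2, Tff2 and Vsig1 on knockout 2. Psca was also well above background on 1 control, and its knockout 3 lay below its control 3. Cblif and Gkn3 were well above background on all 6 arrays. Anxa10 differed by 9.47 without knockout 2, and the part of these markers' cells in its difference was not tested.

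**Figure D2:**
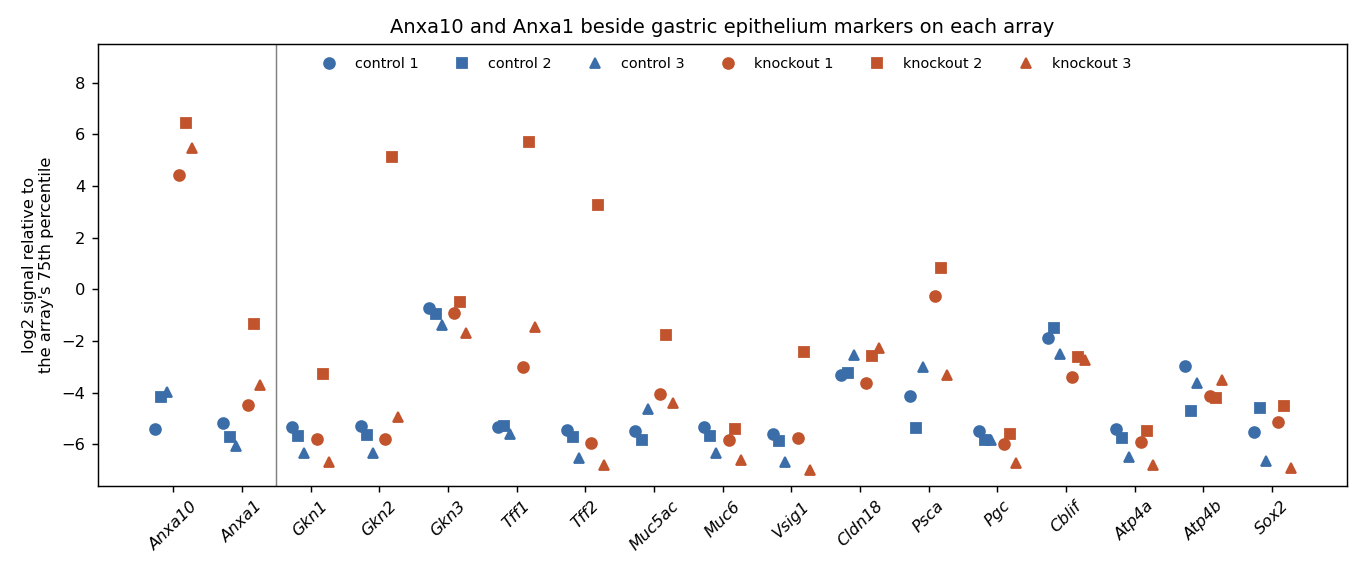
Signal of the Anxa10 probe, 1 Anxa1 probe and all 15 gastric markers on each array (log2 relative to the array's 75th percentile), blue for controls and orange for knockouts, with the shape giving the replicate number. Knockout 2, the orange square, is high for Tff1 at 5.71, Gkn2 at 5.14 and Tff2 at 3.28, while all 3 knockout arrays are high for Anxa10.

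Anxa13 is known as the intestinal annexin, anchored to apical membrane and vesicles of epithelial cells by a fatty acid at its N-terminus. Its gene lies on chromosome 15. Probe 1 gave 6.45, 6.02 and 6.73 on controls 1 to 3, against 7.59, 8.29 and 8.43 on knockouts 1 to 3. Probe 2 gave 4.56, 4.09 and 4.86 on the controls, against 5.78, 6.48 and 6.71 on the knockouts. The groups did not overlap on either probe, and knockout 1 was the lowest knockout array on both. The log2 difference of Anxa13 was 1.71 ± 0.29 on probe 1, or 3.26-fold, and 1.82 ± 0.31 on probe 2 (SE, n = 3 per group). Within slides 1 and 2 probe 1 differed by 1.71 and 1.70. With the array median the difference was 1.46, and without knockout 2 it was 1.61.

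Anxa2 joins membranes to actin at the cell surface, and as a complex with S100a10 it binds plasminogen and its activator. The gene lies on chromosome 9. On probe 1 Anxa2 was at 8.49, 8.36 and 8.86 on controls 1 to 3 and at 9.02, 9.47 and 9.74 on knockouts 1 to 3. On probe 2 the values were 4.13, 3.89 and 4.76 on the controls, against 4.94, 5.42 and 5.88 on the knockouts. All knockout values of Anxa2 lay above all control values on both probes, by a gap of 0.15 on probe 1 and 0.18 on probe 2. The log2 difference of Anxa2 was 0.84 ± 0.24 on probe 1, or 1.79-fold, and 1.15 ± 0.32 on probe 2. It was 0.82 within slide 1 and 0.88 within slide 2 on probe 1, and it was not among the 4 members called. With slide as a block Anxa2 was the fifth member called, as it was with normexp, quantile normalization and without knockout 1. The 250 bases before its start site, chr9:69453433-69453682 on the plus strand of GRCm38.p6, are shown because this was the other member window with an AP-1 match, in capitals.
Anxa2: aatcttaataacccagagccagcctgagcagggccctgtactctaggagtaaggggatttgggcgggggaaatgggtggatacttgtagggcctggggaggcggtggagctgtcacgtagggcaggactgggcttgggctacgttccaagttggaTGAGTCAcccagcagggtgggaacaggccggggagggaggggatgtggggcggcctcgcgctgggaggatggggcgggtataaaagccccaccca
That match is also TGAGTCA and lies 95 bases before the start.

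Anxa1, with an N-terminal tail that acts on formyl peptide receptors and limits inflammation, was at the edge of detection. The gene lies on chromosome 19, and neither of its probes entered the fit. On controls 1 to 3 probe 1 gave -5.43, -5.78 and -5.13 and probe 2 gave -5.19, -5.69 and -6.07, all at background. On knockouts 1 to 3 probe 1 gave -5.91, -2.34 and -4.08 and probe 2 gave -4.48, -1.32 and -3.70. Both probes were well above background on knockouts 2 and 3 and on no other array, and knockout 2 was the highest. With controls raised to the dimmest signal well above background, knockout over control was 1.52-fold on probe 2. This is no lower bound, because knockout 1 was also at background. Probe 1 gave no such value.

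Anxa5 and Anxa4 bind phosphatidylserine and lie close to the membrane, Anxa5 as a lattice that forms at membrane wounds. Anxa5, on chromosome 3, was at 0.21, 0.14 and 0.29 on controls 1 to 3 and at 0.98, 0.75 and 1.51 on knockouts 1 to 3. The groups of Anxa5 did not overlap, and knockout 3 was the highest array. Its log2 difference was 0.86 ± 0.22, or 1.82-fold, with 0.69 within slide 1 and 1.22 within slide 2. Anxa4, on chromosome 6, is abundant in secretory epithelia. Its probe 1 gave 6.73, 6.61 and 7.15 on controls 1 to 3, against 6.11, 6.39 and 6.48 on knockouts 1 to 3. Its probe 2 gave 3.90, 3.84 and 4.48 on the controls, against 3.49, 3.90 and 4.28 on the knockouts. The groups of Anxa4 were separate on probe 1 by a gap of 0.13 and overlapped on probe 2. The log2 difference was -0.50 ± 0.20 on probe 1 and -0.18 ± 0.28 on probe 2, so the probes agreed in sign and not in size. Within slides 1 and 2 probe 1 differed by -0.41 and -0.67.

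Anxa7 and Anxa11 have long N-terminal tails and act in secretion, vesicle and RNA granule traffic, and both genes lie on chromosome 14. Anxa7 was at 2.01, 1.50 and 2.04 on controls 1 to 3 and at 2.66, 3.06 and 3.05 on knockouts 1 to 3. Every knockout array lay above every control array, by 0.62 at the least. The log2 difference of Anxa7 was 1.07 ± 0.22, or 2.10-fold, and 1.1 and 1.01 within slides 1 and 2. Anxa11 was at -1.68, -1.91 and -1.36 on controls 1 to 3 and at -2.03, -1.66 and -1.78 on knockouts 1 to 3. Its groups overlapped, and its difference of -0.17 ± 0.20 was within the spread between arrays.

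Anxa6 carries a doubled annexin core and acts in endocytosis and cholesterol handling, and Anxa3 is best known from neutrophils. Anxa6, on chromosome 11, was at -1.28, -0.82 and -0.77 on controls 1 to 3 and at -0.28, -1.20 and -0.24 on knockouts 1 to 3. Knockout 2 lay among the controls, and the log2 difference was 0.38 ± 0.30. Anxa3, on chromosome 5, was at 0.39, 0.16 and 1.01 on controls 1 to 3 and at 0.53, 0.62 and 1.06 on knockouts 1 to 3 on probe 1. On probe 2 it was at -2.41, -3.00 and -1.88 on the controls and at -2.43, -2.29 and -1.67 on the knockouts. Control 3 and knockout 3, which shared slide 2, were the highest arrays of their groups on both probes. The groups of Anxa3 overlapped, with differences of 0.22 ± 0.27 and 0.30 ± 0.34.

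**Figure D3:**
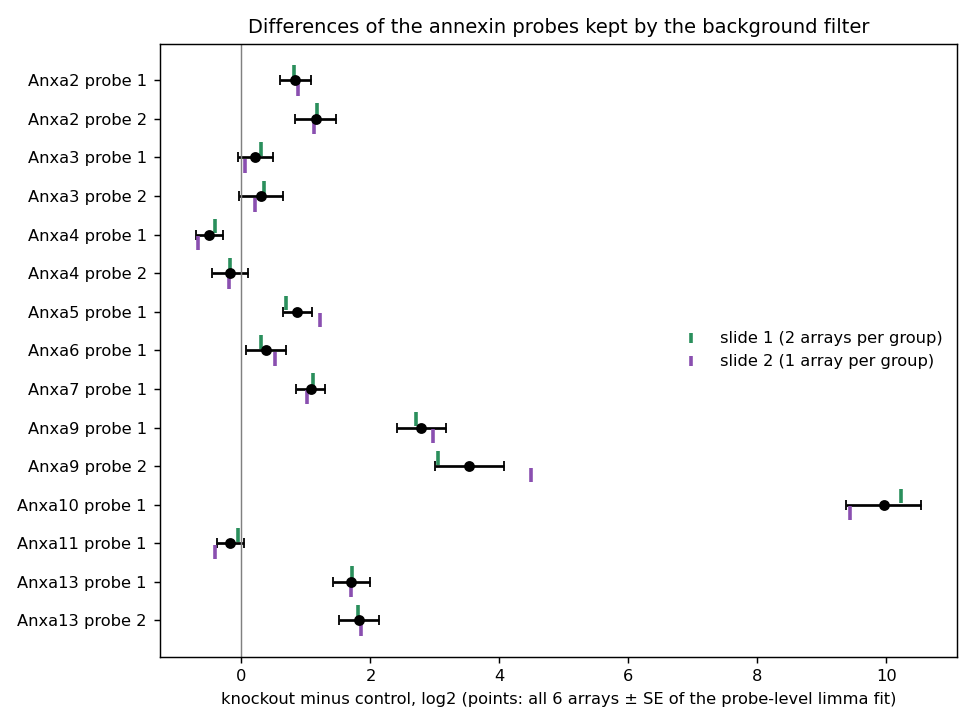
Knockout minus control difference (log2) of each annexin probe kept by the background filter, with black points for all 6 arrays and bars for ± SE of a limma fit over probes. Green ticks give the difference within slide 1 and purple ticks that within slide 2, and for Anxa10 these lie at 10.22 and 9.44, beyond every other annexin probe.

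Outside the member list, Anxa9, an annexin with degenerate calcium-binding sites, rose in knockout crypts. Anxa9 lies on chromosome 3. Its brightest probe gave -3.59, -3.26 and -3.60 on controls 1 to 3, of which controls 2 and 3 were well above background. On knockouts 1 to 3 it gave -1.49, 0.05 and -0.63, all above every control. The log2 difference of Anxa9 was 2.79 ± 0.38, or 6.91-fold (adjusted p = 0.00658). Within slides 1 and 2 it was 2.70 and 2.96, and the adjusted p was 0.0133 in a fit with a slide block. A second kept probe, at background on all controls, differed by 3.53 ± 0.53, at least 4.36-fold. The dimmest of the 3 probes gave 2.14-fold, which is no lower bound because its knockout 1 was also at background. The adjusted p of Anxa9 ranged from 0.00223 to 0.0331 with any 1 array left out, and it was 0.0572 without both arrays of contradicting labels. Normexp background correction gave a difference of 1.43. Anxa9 passed the filter only with knockout arrays counted, so its call is no independent support for a rise. With probes required on all 6 arrays it was not tested. Anxa8, on chromosome 14, was at -5.54, -5.88 and -6.58 on controls 1 to 3, all at background. It was at -2.62, -3.04 and -5.37 on knockouts 1 to 3, well above background on knockouts 1 and 2. Calculated in the same way it was 1.07-fold higher, which is no lower bound because knockout 3 was at background.

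Genes of processes in which annexins act, and other calcium-dependent lipid-binding proteins, were listed in 6 groups and are called partner genes here. The name does not mean that each binds an annexin. Of the 76 listed, 55 were bright enough to test. Of these 9 were called higher in knockout crypts and 4 lower, or 16.4% and 7.27%, beside 7.28% and 7.63% of all genes, so the share called lower was that of all genes. Their median difference was 0.32, beside -0.01 over all genes. With probes required on all 6 arrays 7 of 48 were called higher and 5 lower, beside 917 higher and 968 lower of 11969 genes. The S100 proteins made up 4 of the 9, and the strongest falls were in Gas6 and Mfge8, which bridge phosphatidylserine to receptors on phagocytes, and in the copine Cpne2. These lists were written with earlier results of the same data known, so their counts are not independent evidence. Without controls 1, 2 and 3 in turn the number of partner genes called higher was 2, 1 and 4. Without knockouts 1, 2 and 3 it was 15, 3 and 4, and the number over all genes moved in the same direction each time. Without both arrays of contradicting labels 2 were called higher and 2 lower.

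Of 16 S100 genes, 11 were tested, 4 were called higher and 0 lower, with 0 below an unadjusted p of 0.05 in the lower direction. With probes required on all 6 arrays, which left out S100a9, 3 of 9 were called. The median difference was 0.68, and 11 of the 11 differences were positive, or 10 of the 11 with arrays centred on their median. S100a10 forms a tetramer with Anxa2. It was at 6.04, 6.19 and 6.28 on controls 1 to 3 and at 6.71, 7.46 and 7.47 on knockouts 1 to 3, with no overlap between the groups. The log2 difference of S100a10 was 1.04 ± 0.24, or 2.06-fold (adjusted p = 0.0349). S100a6, a partner of Anxa11 and Anxa2, was at 3.94, 3.85 and 4.59 on controls 1 to 3 and at 5.04, 6.02 and 6.11 on knockouts 1 to 3. S100a6 rose by 1.60 ± 0.35, or 3.03-fold (adjusted p = 0.0295), with knockout 1 the lowest knockout array. S100a11, the partner of Anxa1, was at 3.02, 3.12 and 3.56 on controls 1 to 3 and at 3.63, 4.38 and 3.74 on knockouts 1 to 3. Its groups were separate, and its difference of 0.68 ± 0.26 did not pass the test (adjusted p = 0.120). S100a1 was at 1.01, 0.97 and 0.86 on controls 1 to 3 and at 1.47, 1.63 and 2.0 on knockouts 1 to 3, a rise of 0.76 ± 0.18 (adjusted p = 0.0401).

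S100a9, a calcium-binding protein abundant in neutrophils, was at background on all 3 controls. It was at -5.36, -5.70 and -6.45 on controls 1 to 3 and at -1.74, -2.83 and -3.89 on knockouts 1 to 3, at least 1.94-fold higher. S100a9 entered the fit only through the knockout arrays, so its call (adjusted p = 0.0181) is no independent support for a rise. Normexp, which adds a constant to every signal, gave a log2 difference of 0.79, a smaller fold than that bound. The bound was 1.33-fold without knockout 1. S100a8, which pairs with S100a9 in neutrophils, was well above background on no array. The myeloid list of 8 genes had 6 tested, of which Cd68 and Ly6g rose by 0.87 and 1.15 and Lyz2, also a Paneth cell product in crypts, fell by 3.43. Its summed level was 6.75 to 7.61 on controls and 7.39 to 8.31 on knockouts, and its part in the S100 values was not tested. Like the number called over all genes, the S100 count depended on single arrays. It was 4 with all arrays, 1, 0 and 1 without controls 1, 2 and 3, and 6, 0 and 1 without knockouts 1, 2 and 3, and 0 without both arrays of contradicting labels. S100a10 and S100a1 lost their calls without control 1, 2 or 3 or knockout 2 or 3, with adjusted p of 0.0811 to 0.126 for S100a10 and 0.0768 to 0.123 for S100a1. S100a6 lost its call without control 1 or 2 or knockout 2 or 3 (0.0689 to 0.108), and S100a9 without control 2 or 3 or knockout 2 (0.0548 to 0.0657).

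Among plasma membrane repair genes, 15 of 18 were tested, with a median difference of 0.22, and 1 rose and 1 fell. With arrays centred on their median that median was -0.03. Capn2, a calcium-activated protease, was at 0.94, 1.73 and 2.62 on controls 1 to 3 and at 4.68, 5.14 and 5.17 on knockouts 1 to 3. Every knockout array was far above the controls, and Capn2 rose by 3.23 ± 0.42, or 9.41-fold (adjusted p = 0.00568). It passed with any 1 array left out. Cavin1, a coat protein of caveolae, was at -2.40, -2.39 and -2.34 on controls 1 to 3 and at -3.35, -2.98 and -3.72 on knockouts 1 to 3. Cavin1 fell by 0.97 ± 0.21 (adjusted p = 0.0295), and this call was lost without control 1, 2 or 3 or knockout 3 (adjusted p of 0.0505 to 0.103). With normexp the difference was -0.24 (adjusted p = 0.256). The partner of Cavin1 in caveolae, Cav1, was well above background on no array.

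In plasminogen activation at the cell surface, a process that Anxa2 with S100a10 promotes, 3 of 8 genes were tested and 2 were called higher. With probes required on all 6 arrays 1 gene was tested and 0 were called with limma. Plaur, the urokinase receptor, was at -3.09, -2.60 and -1.64 on controls 1 to 3 and at -0.59, 1.09 and -0.16 on knockouts 1 to 3. It rose by 2.56 ± 0.53 (adjusted p = 0.0243), with 3.1 within slide 1 and 1.48 within slide 2, and normexp gave 1.66. Plaur was well above background on 2 controls and passed the filter only with knockout arrays counted. Its call is therefore no independent support for a rise. Serpine2, an inhibitor of serine proteases, was at background on all controls, at -5.51, -4.39 and -4.29, and at -2.31, -3.26 and -1.99 on knockouts 1 to 3. Serpine2 was at least 2.34-fold higher. It entered the fit only through the knockout arrays, so its call (adjusted p = 0.0223) is no independent support. Normexp, which adds a constant to every signal, gave a log2 difference of 0.76, a smaller fold than that bound. The Plaur call was lost without control 1, control 2 or knockout 2 (adjusted p of 0.0507 to 0.0849), and that of Serpine2 without control 1, 2 or 3 or knockout 3 (0.0517 to 0.0633). Plg and Serpinb2 were well above background on no array, Plat was on 2 knockout arrays, and Plau, the activator that Plaur binds, was on 1 control and 1 knockout array.

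Phosphatidylserine is the lipid that Anxa5 binds on dying or damaged cells, and 11 of 12 genes of its exposure and recognition were tested. Of these 1 rose and 2 fell, and the median difference was -0.04. Gas6 links phosphatidylserine to the receptors Axl and Mertk. It was at 4.06, 3.66 and 3.65 on controls 1 to 3 and at 0.26, 0.48 and -0.13 on knockouts 1 to 3. Gas6 fell by 3.59 ± 0.22 (adjusted p = 0.000572), with -3.49 within slide 1 and -3.78 within slide 2. Mfge8, which links phosphatidylserine to integrins, was at 4.46, 4.09 and 3.98 on controls 1 to 3 and at 2.35, 1.16 and 1.30 on knockouts 1 to 3. Mfge8 fell by 2.57 ± 0.34, or 5.94-fold (adjusted p = 0.00600). All knockout arrays were below all controls for both genes, and both passed with any 1 array left out. Without both arrays of contradicting labels the adjusted p of Mfge8 was 0.0704, and on slide 1 alone 0.0546. Xkr8, a scramblase that exposes phosphatidylserine, was at -1.07, -0.85 and -0.61 on controls 1 to 3 and at 0.14, -0.10 and 0.89 on knockouts 1 to 3. It rose by 1.16 ± 0.29 (adjusted p = 0.0421), and this call was lost without control 1, 2 or 3 or knockout 2 or 3 (adjusted p of 0.0507 to 0.146). With arrays centred on their median, Xkr8 was not called and Pros1, a relative of Gas6, was called as lower.

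Of 8 tested genes out of 11 for phospholipase A2, prostaglandin synthesis and formyl peptide receptors, where Anxa1 acts, 0 passed an adjusted p of 0.05 with limma. At an unadjusted p of 0.05, 2 were higher and 2 lower, and the median difference was 0.18. The result for Ptges, a prostaglandin E synthase, depended on the probe. Its brightest probe, the one tested, differed by 0.41 ± 0.14, and its other kept probes by 3.44 ± 0.76 and 3.15 ± 0.59. Ptges was called higher with the mean of its probes, Pla2g4c higher with normexp and without knockout 2, Ptgs1 lower with arrays centred on their median, and Pla2g4a lower with a replicate block and without knockout 1. Fpr1 and Ptgs2 were well above background on no array. Among other calcium-dependent lipid-binding proteins 7 of 11 were tested, with a median of 0.08. Cpne2, a copine, was at 1.70, 1.67 and 1.99 on controls 1 to 3 and at -0.67, -1.09 and -0.89 on knockouts 1 to 3. Cpne2 fell by 2.67 ± 0.18, or 6.37-fold (adjusted p = 0.000721), and passed with any 1 array left out. Esyt1, which tethers the endoplasmic reticulum to the plasma membrane, was at -0.90, -0.93 and -0.79 on controls 1 to 3 and at -0.07, -0.12 and -0.05 on knockouts 1 to 3. Its arrays were tight within groups, and Esyt1 rose by 0.79 ± 0.14 (adjusted p = 0.0153). That call was lost without control 1, control 2 or knockout 2 (adjusted p of 0.0528 to 0.0760).

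**Figure D4:**
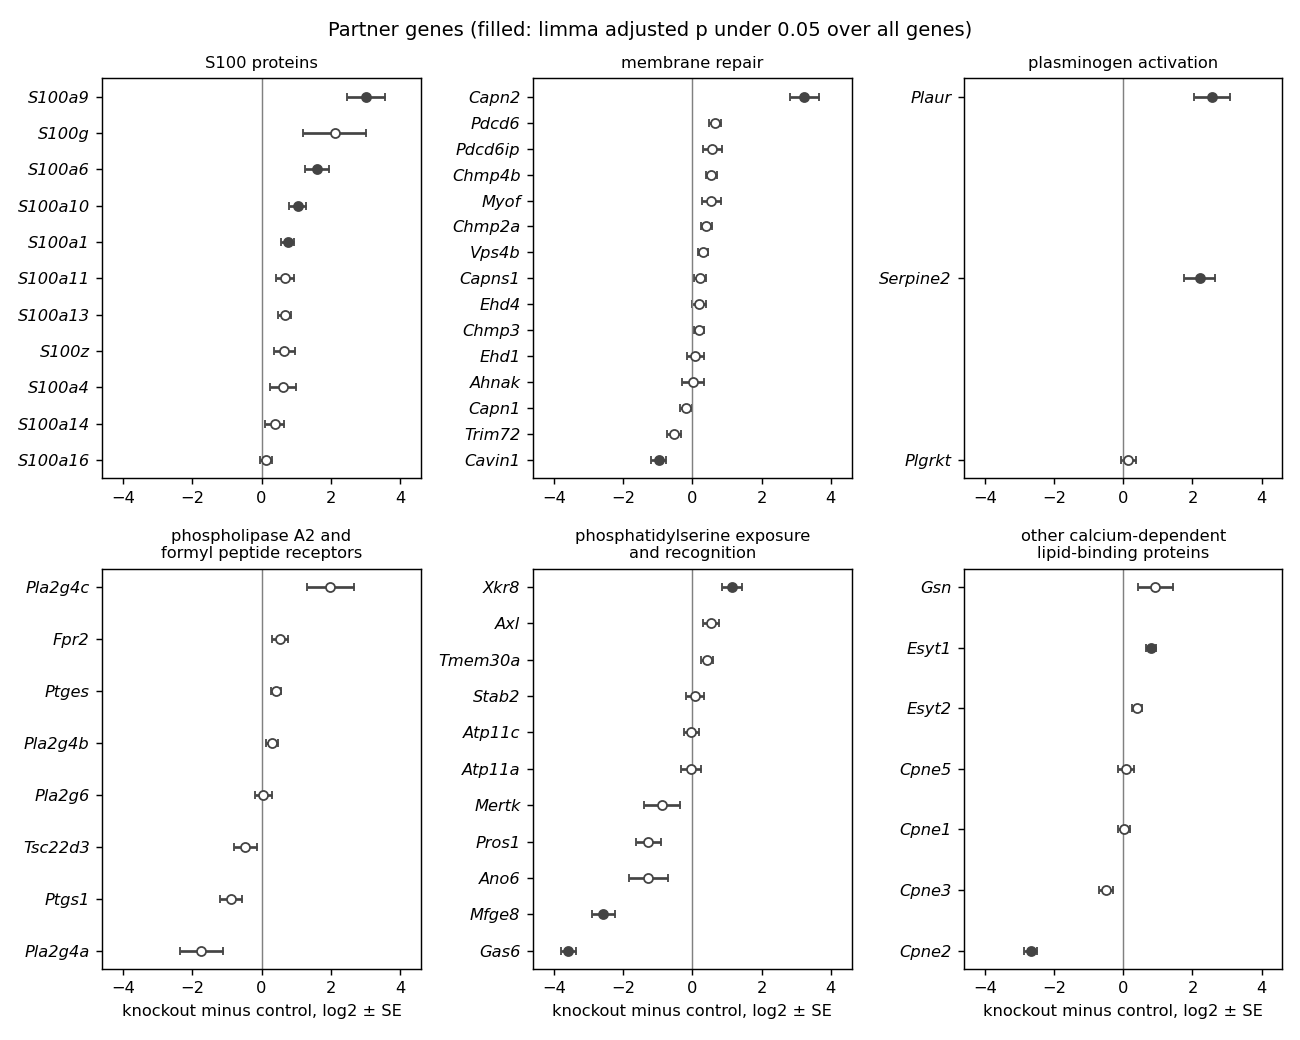
Knockout minus control difference (log2, points) ± SE (bars, n = 3 per group) of the 55 tested partner genes in their 6 groups, with filled points for an adjusted p under 0.05 over all genes with limma. All 11 S100 points lie to the right of 0 on this scale (10 of the 11 with arrays centred on their median), and Gas6 at -3.59 and Cpne2 at -2.67 lie farthest to the left of their panels.

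Markers of the cell types in a crypt preparation were measured beside the annexins. All 10 intestinal epithelium markers were well above background on enough arrays to test, with summed levels of 11.06 to 11.39 on controls and 11.16 to 11.80 on knockouts. Cdx1, an intestinal transcription factor, fell by 1.14 ± 0.27 (adjusted p = 0.0376) and was the only one of the 10 called. Differences were positive for 8 of the 10, or 6 with arrays centred on their median. Cdx2 differed by -0.55 ± 0.16, with every knockout array below every control array. It was called lower with normexp, quantile normalization and the detected-probe percentile. Without knockout 1 Cdx2 was also called lower, and Krt18 and Krt20 were called higher. Of 8 enterocyte markers all were tested and 0 were called with limma, with 1 higher and 1 lower at an unadjusted p of 0.05. Of 8 fibroblast markers 1 was tested, and Col1a1, Col3a1, Dcn, Lum, Pdgfra and Pdgfrb were well above background on no array. Acta2 of the smooth muscle list rose by 0.91 ± 0.24 (adjusted p = 0.0478), while Myh11, Des and Cnn1 were at background on all arrays. Tagln differed by -0.07 ± 0.35 and Actg2 by 0.54 ± 0.32, both with overlapping groups. The summed level of that list was 5.25 to 5.90 on controls and 5.90 to 6.59 on knockouts. The endothelium sum was -1.88 to -1.65 on controls and -1.17 to -1.15 on knockouts, with 3 of 6 markers tested, 0 called with limma and 1 higher at an unadjusted p of 0.05. Vwf was called higher with slide as a block (adjusted p = 0.0202), with a replicate block and without knockout 3. It entered the fit only with knockout arrays counted, so these calls are no independent support for a rise. Pecam1 and Tek differed by 0.53 and -0.02, and the groups of Vwf, Pecam1 and Tek overlapped. Cdh5, Kdr and Emcn were at background on all arrays. Thy1 of the lymphocyte list rose by 1.92 ± 0.37 (adjusted p = 0.0209), and the sum of its 6 tested genes was 5.14 to 5.94 on controls and 3.81 to 5.23 on knockouts. Cd4 had the highest signal of the 6 on each array and so weighed most in that sum. Its values were 5.01, 5.20 and 5.79 on controls 1 to 3, against 2.69, 4.02 and 4.88 on knockouts 1 to 3. The Cd4 difference of -1.47 ± 0.54 did not pass with limma (adjusted p = 0.111). Cd3e, Cd8a and Cd3g differed by 0.12, 0.01 and -0.01, and Ptprc by 0.67 ± 0.49, all with overlapping groups. Among these marker calls, that of Cdx1 was lost without control 1, 2 or 3 or knockout 2, that of Acta2 without any 1 array other than knockout 1, and that of Thy1 without control 1, 2 or 3. Leaving out control 1, control 2 or knockout 2 left 0 myeloid calls. The part of these cells in the annexin differences was not tested.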

How the data were processed

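RNA of isolated crypts, 3 control and 3 knockout samples, was measured on one-colour Agilent arrays with Cy3 label, per the labels, with 1 array for each sample. The deposited intensity of each spot is Feature Extraction's processed signal, background-subtracted within its array, in version 12.0.3.1 according to the headers of the files. The submitters' processing notes name version 11.5.1.1. Flags for background and outliers are those of the deposited files. The series table deposited by the authors is in log2 units and matched the scanner values (r = 1.0 on every array) on the 75th percentile scale, centred on each probe's median and in the same direction. Its column medians were 0.196, 0.061 and -0.322 on controls 1, 2 and 3, and -0.072, 0.214 and -0.183 on knockouts 1, 2 and 3.

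Spots flagged as outliers and control spots were dropped, replicate spots averaged, and log2 signal minus each array's 75th percentile taken. Its value was 295, 279 and 290 for controls 1, 2 and 3 against 292, 206 and 205 for knockouts 1, 2 and 3. The number of arrays limits the precision. Within a group arrays correlated at 0.966 to 0.986, and 0 spots were saturated. Probes were named by accession through a RefSeq gene table of GRCm38.p6 (33767 of 56605). Those well above background on at least 3 of 6 arrays were kept (26746), and the brightest per gene was tested with limma 3.58.1 in R 4.3.3, fitting group alone, with Benjamini-Hochberg adjustment over 13492 genes and a two-sided adjusted p under 0.05. The single-probe SEs of second probes come from the same fit over probes. Where all arrays of a group were at background, "at least N-fold" divides the bright mean by a floor, on each array either the dimmest signal that was well above background or the probe's own signal if larger. For Anxa1, Anxa8 and the dimmest Anxa9 probe a knockout array was also at background. Its recorded signal was used, so those folds are not lower bounds. Promoter windows come from the RefSeq promoter table of GRCm38.p6.

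The members, the partner and marker lists and the alternatives were chosen with earlier results of these data known. The named genes were every member, S100a6, S100a10 and S100a11, up to 4 called genes per partner list, and markers that were called or at background. Tff1, Tff2, Gkn2, Psca, Vsig1, Muc5ac, S100a8, Cav1, Pros1 and other partner genes at background were named after their values were seen. So were Cblif, Gkn3, Cldn18, Atp4b, Cd4, Ptprc, Cd3e, Cd3g and Cd8a, and Vwf, Pecam1, Tek, Cdx2, Krt18, Krt20, Tagln and Actg2. On simulated data of 13492 genes for knockout against control, the fit recovered 38%, 56%, 84% and 88% of 50 genes changed 2-, 2.83-, 4- and 8-fold, with 6 false calls. Far fewer genes were changed in the simulation than the 2011 called in the data. The cutoff set by the adjustment depends on that number, so these rates need not hold for the real fit. Alternatives covered background correction, scaling, filter, probe choice, replicate number, slide or sex as a block, the contradicting labels, the deposited table, the threshold and each array left out.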

Additional observations from a re-analysis of the deposited data

How the results depend on the processing

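Members called higher numbered 4, and they numbered 4 or 5 with normexp, quantile normalization, slide as a block, the mean of a gene's probes, the 75th percentile over detected probes and the deposited table. They numbered 2 with the array median, 2 with no filter on dim probes, 2 with sex as a block (chosen after seeing the data, as was the detected-probe percentile), 1 on slide 1 alone, 1 without both arrays of contradicting labels, 0 by source name and genotype and 1 at an adjusted p under 0.01. They ranged from 1 to 5 with each array left out. Over all genes the number called higher also fell, from 982 of 13492 to 561 with the array median. It was 366 of 23456 genes with no filter and 289 at an adjusted p under 0.01. With probes required on all 6 arrays, 3 of the 8 members then tested were called, since Anxa10 was not tested. Members called lower were 0 in every setting run. Partner genes called higher numbered 9, and 5 with the array median, 1 with no filter (76 tested), 2 on slide 1 alone, 2 without both contradicting arrays, 0 by source name and genotype, 1 at an adjusted p under 0.01 and 1 to 15 with each array left out. The number of all genes called higher moved in the same direction in each of these settings. Partner genes called lower numbered 4, and 2 without both contradicting arrays, 0 by source name and genotype and 3 to 6 with each array left out. By source name and genotype limma called 0 of all genes, with 207 at an unadjusted p under 0.05, and the Anxa4 and Anxa11 differences were 0.00 and 0.02. The cause of these changes was not tested. Same-numbered samples had correlations of deviations of 0.25, 0.08 and 0.35, and other pairs from -0.28 to 0.02, so every sample correlated best with its own number. The main fit took in neither number nor slide. For number 3 a pair cannot be told apart from a shared slide. A replicate block gave 5 members and 11 partner genes called higher and 6 partner genes lower, and S100a1 lost its call (adjusted p = 0.0520). Signals near background limit Anxa1, Anxa8, Anxa9, S100a9, Serpine2, Plaur, Cavin1 and the size of the Anxa10 difference.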
